A study of Homo sapiens with 10 samples.

Results

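Genes used as markers of stem-like prostate cancer cells were followed across 10 RNA-seq libraries of PC3, a prostate cancer cell line. The 9 genes are the surface proteins CD44, EPCAM and PROM1 (also known as CD133), the aldehyde dehydrogenases ALDH1A1 and ALDH1A3, the intermediate filament protein NES (nestin), and the transcription factors KLF4, KLF5 and MYC. They were taken by symbol, with earlier results of these data known, and all 9 were found among the 57445 gene IDs of the count files. All 9 also passed the filter on low counts that left 18478 genes for testing. PROM1 and ALDH1A1 passed it at the edge of detection, so the expressed members in this line are 7 of 9.

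The study asked what loss or inhibition of RNF2 does to these cells. RNF2 (RING1B) is a catalytic subunit of Polycomb repressive complex 1 (PRC1), which places ubiquitin on histone H2A. The 5 groups, of 2 libraries each, all come from PC3. In 6 libraries the cells stably carried a hairpin: a scrambled one (Scramble), or 1 of 2 hairpins labelled as RNF2 hairpins (RNF2 shRNA1 and RNF2 shRNA2). In 4 libraries cells were treated for 48 hours with PRT4165, an inhibitor of PRC1 ubiquitin ligase activity, or with GW-516, a compound given by its code name. The labels give no dose, no vehicle group and no hairpin for the compound-treated cells. The only control is therefore Scramble, and a compound's effect cannot be told apart from that of its solvent or of the hairpin vector. All 4 comparisons with Scramble share its 2 libraries. Nothing in the labels ties the libraries to separate cultures, and the p-values measure the spread between these libraries, which may be technical.

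Stemness markers are genes whose products have been used to sort or score tumour cells able to start new growths. CD44 binds hyaluronan, EPCAM joins epithelial cells, and prominin 1 sits on membrane protrusions. Aldehyde dehydrogenases of the 1A class make retinoic acid from retinaldehyde and underlie the ALDEFLUOR sorting assay. KLF4 and MYC belong to the set of factors used to reprogram somatic cells to pluripotency, and KLF5 is a related factor of basal and luminal prostate epithelium. None of these markers is specific to stem-like cells, and in bulk RNA fewer cells of a type cannot be told apart from less RNA per cell.

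Start-site sequence is shown for ALDH1A3 and NES, which had the widest contrasts between groups among the 7 expressed members. It is also shown for CD44 and KLF4, whose 5 groups did not overlap. The groups were apart for ALDH1A3, EPCAM and MYC as well. How many of all genes had their groups apart was not counted, so separation of groups is given only as a description. RefSeq windows (GRCh38.p14) run from 250 bases before to 50 bases after an annotated start, 300 bases in all. They were found for 7 members, 11 windows in total. The counts were made on GRCh37, so the windows serve for sequence only. Capitals mark 3 motifs on either strand: CACGTG, the E-box core bound by MYC with MAX; GGGCGG, the GC box bound by SP and KLF proteins; and CACCC, the other element bound by KLF proteins. The windows lie at chr11:35138921-35139220 (CD44, + strand), chr15:100879581-100879880 (ALDH1A3, + strand), chr1:156677358-156677657 (NES, - strand) and chr9:107489720-107490019 (KLF4, - strand).
CD44: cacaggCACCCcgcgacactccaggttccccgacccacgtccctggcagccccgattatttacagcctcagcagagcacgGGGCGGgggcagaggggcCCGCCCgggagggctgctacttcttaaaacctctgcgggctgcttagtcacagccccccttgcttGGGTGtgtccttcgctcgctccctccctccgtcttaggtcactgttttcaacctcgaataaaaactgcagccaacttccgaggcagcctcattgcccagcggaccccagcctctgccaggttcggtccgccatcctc
ALDH1A3: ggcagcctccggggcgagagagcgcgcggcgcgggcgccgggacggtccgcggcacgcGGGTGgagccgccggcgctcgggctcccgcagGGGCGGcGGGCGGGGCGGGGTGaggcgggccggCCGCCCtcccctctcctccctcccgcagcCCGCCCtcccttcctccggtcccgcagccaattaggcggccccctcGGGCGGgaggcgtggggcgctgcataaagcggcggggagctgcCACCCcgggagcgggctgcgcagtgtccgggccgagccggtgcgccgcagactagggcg
NES: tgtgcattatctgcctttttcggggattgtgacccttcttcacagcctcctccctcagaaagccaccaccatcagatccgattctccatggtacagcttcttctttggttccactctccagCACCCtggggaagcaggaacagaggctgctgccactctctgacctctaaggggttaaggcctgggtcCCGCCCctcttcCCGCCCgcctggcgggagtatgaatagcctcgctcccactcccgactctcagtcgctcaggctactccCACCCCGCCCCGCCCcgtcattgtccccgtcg
KLF4: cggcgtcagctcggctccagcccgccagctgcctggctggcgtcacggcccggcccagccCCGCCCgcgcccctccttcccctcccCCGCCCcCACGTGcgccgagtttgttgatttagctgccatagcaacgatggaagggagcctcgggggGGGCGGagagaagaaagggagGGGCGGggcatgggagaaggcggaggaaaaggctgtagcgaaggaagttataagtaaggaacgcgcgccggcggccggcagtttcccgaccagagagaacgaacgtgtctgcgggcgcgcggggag
The KLF4 window held 1 E-box, 4 GC boxes and 0 CACCC boxes. Of all 35116 windows in the RefSeq table, 7.26% held an E-box, 45.0% a GC box and 59.9% a CACCC box. The ALDH1A3 window held 6 GC boxes and 3 CACCC boxes, with 1 CACCC box overlapping a GC box, in sequence that was 81.7% G or C. In that window and in the NES window, 1 pair of GC boxes also overlapped. CD44 had 2 of each of those elements, and NES had 4 GC boxes and 2 CACCC boxes, 1 of them overlapping a GC box. Among the other members with windows, ALDH1A1 had 0 matches to the 3 motifs, in sequence of 40.3% G or C. Apart from KLF4, 0 of the windows of the members carried the E-box. A match describes letters in a window and is not a binding site.

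Reads assigned to genes totalled 65877850 to 108380198 per library, with each end of a read pair counted. Levels within a gene are given in CPM, counts per 1000000 counts after TMM scaling. RNF2 mRNA, the labelled target of both hairpins, stood at 30.6 and 28.3 CPM in Scramble and at 12.1 and 12.0 CPM in RNF2 shRNA1. It was not reduced in the libraries labelled RNF2 shRNA2 (33.5 and 35.3 CPM), where BMI1, another PRC1 subunit, was at 53.0 and 61.6 CPM against 251 and 255 CPM in Scramble. Results below are therefore given for those libraries by their label only. The libraries expressed vimentin and the epithelial keratin KRT18 (314 to 466 CPM), and had at most 0.0286 CPM of KLK3, the gene of prostate-specific antigen. Summed over 10 haematopoietic markers, the libraries held 0.577 to 2.23 CPM, highest in GW-516, with 3 or 4 markers at 0. Over 10 stromal and endothelial markers they held 169 to 285 CPM, mostly COL1A2, lowest in RNF2 shRNA1 and GW-516. The part of either in the results was not tested.

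The 2 libraries of Scramble, of RNF2 shRNA1 and of GW-516 were nearly alike. Over genes with 20 or more counts, chi-square per degree of freedom was 2.15, 2.19 and 2.20 in these pairs, and 1.08 to 1.10 after halving the counts for the read ends. The PRT4165 pair gave 6.89 and the RNF2 shRNA2 pair 12.2. Whether the near-alike pairs are 2 cultures or 2 runs of 1 cannot be told apart here. Each was kept as 2 libraries. Where a call for a member was lost with each such pair summed to 1 sample, the adjusted p is given beside it. For the other genes named below, single calls were not followed in that setting, and only counts per list were.

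The 9 markers spanned more than 4 orders of magnitude in level, as the plot of levels by gene shows. Per kilobase of exon (RPKM), the mean over the 10 libraries was 398 for MYC, 165 for ALDH1A3, 111 for NES, 79.7 for EPCAM, 43.0 for CD44, 21.7 for KLF5 and 11.4 for KLF4. ALDH1A1 followed at 0.0819 and PROM1 at 0.0129. MYC ranked 55 among the 18478 genes tested, so 0.292% of genes had a higher RPKM. For ALDH1A3 that share was 0.958%, for NES 1.54%, and for KLF4 24.6%. From KLF4 to MYC, the 7 expressed members spanned a far wider range of levels than any of them did between groups. Some neighbours in this order, such as ALDH1A3 and NES, differed by less than ALDH1A3 did between groups. The group means spanned 2.19-fold for ALDH1A3, 1.63-fold for NES, 1.50-fold for MYC and for KLF4, 1.32-fold for CD44, 1.24-fold for KLF5 and 1.22-fold for EPCAM. Over the 13104 genes whose mean reached 1 CPM, 13.5% had a wider span than ALDH1A3 and 34.5% a wider span than NES.

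**Figure D1:**
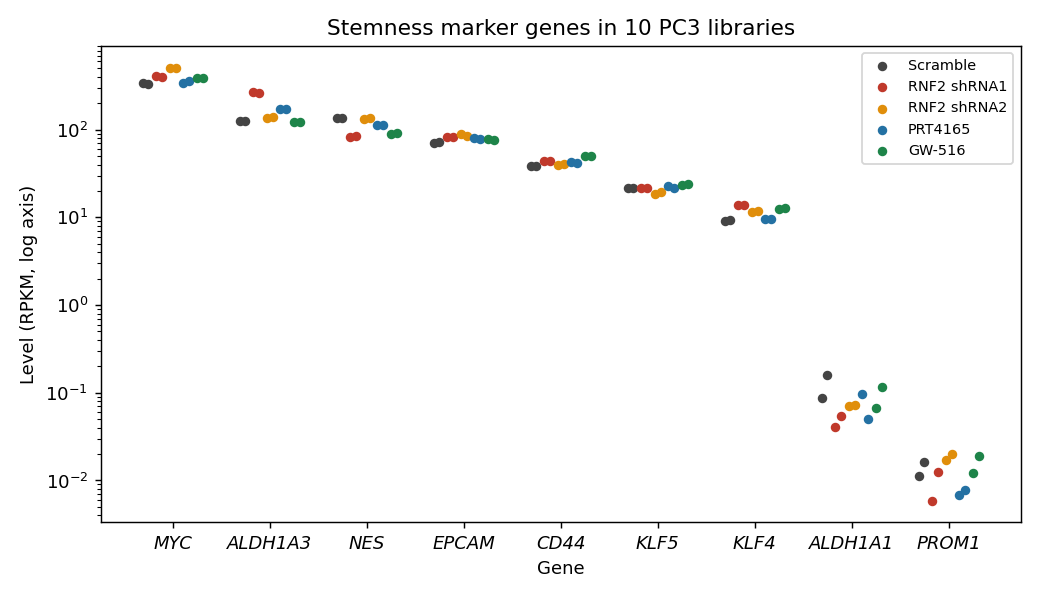
Level of each marker gene in each library, in RPKM on a log axis, with genes ordered by mean level and libraries coloured by group. MYC lies highest, and the points of ALDH1A1 and PROM1 lie below 0.2 RPKM in every library.

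Differences were tested with edgeR's quasi-likelihood test over all 18478 genes and called at a Benjamini-Hochberg adjusted p below 0.05. With RNF2 shRNA1, 7 of the 9 members were called, 5 higher and 2 lower, where 54.7% of all genes were called. In the libraries labelled RNF2 shRNA2, 6 were called (5 higher, 1 lower), against 42.1% of all genes. PRT4165 gave 4 (3 higher, 1 lower), against 41.6%, and GW-516 gave 6 (5 higher, 1 lower), against 55.5%. With PRT4165 the members' count was at the background share, and in the other comparisons it lay above it by few genes. At most 24.6% of genes tested had a higher RPKM than any of the 7 expressed members. The share called among genes of like level was not computed, so the part of level in these counts was not tested. The median change of the 9 members was 0.21, 0.14, 0.06 and 0.14 on the log2 scale in the 4 comparisons, and the median over all genes lay between -0.015 and 0.0086. Of the 9 members, ALDH1A3 and ALDH1A1 were called with a change of at least 2-fold with RNF2 shRNA1 (8.57% of all genes), and 0 members with RNF2 shRNA2 (4.87%), PRT4165 (4.76%) or GW-516 (9.05%). The ALDH1A1 call rests on few counts and was lost in 7 of 19 alternative settings. With the near-alike pairs summed, the counts of members called were 6, 4, 3 and 4, against 34.3%, 24.1%, 24.1% and 33.8% of all genes in that setting.

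**Figure D2:**
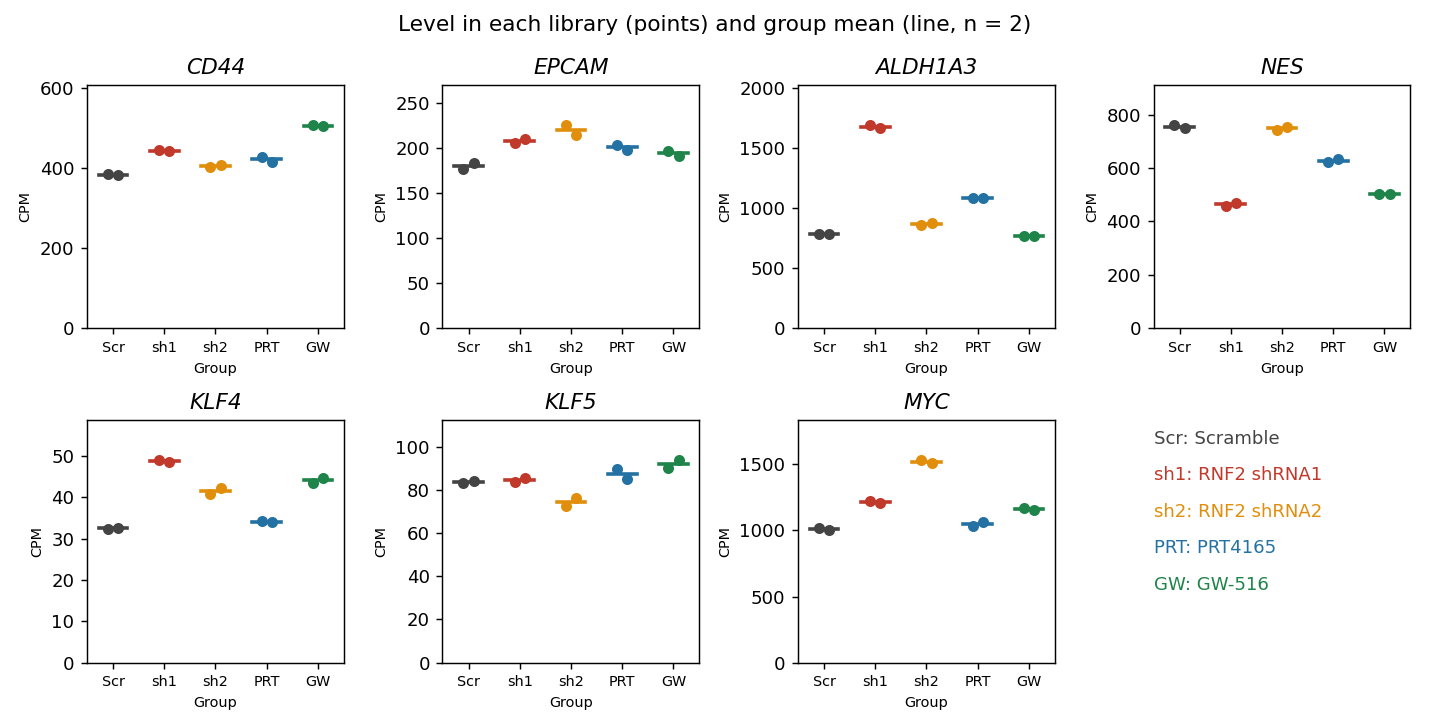
CPM of the 7 expressed markers in each library (points; Scr, Scramble; sh1 and sh2, RNF2 shRNA1 and shRNA2; PRT, PRT4165; GW, GW-516), with the mean of the 2 libraries as a line and each vertical axis starting at 0. ALDH1A3 is highest in RNF2 shRNA1, NES is lowest there and in GW-516, and MYC is highest in the libraries labelled RNF2 shRNA2.

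Among the surface markers, CD44 (ENSG00000026508.12, GRCh37 chr11:35160417-35253949, + strand) was higher than in Scramble in all 4 other groups. CD44, the hyaluronan receptor, was at 384 and 383 CPM in Scramble, 445 and 443 in RNF2 shRNA1, 402 and 409 in RNF2 shRNA2, 429 and 416 in PRT4165, and 507 and 506 in GW-516. The groups did not overlap, and GW-516 stood highest. CD44 rose by 0.40 on the log2 scale with GW-516 (SE 0.026, edgeR adjusted p = 2.3e-12) and by 0.21 with RNF2 shRNA1 (edgeR adjusted p = 2.0e-07). With PRT4165 it rose by 0.14 (edgeR adjusted p = 1.1e-04), and the adjusted p was 0.0639 with the pairs summed. For RNF2 shRNA2 the change was 0.08 (edgeR adjusted p = 0.016), and that call was lost in 8 of 19 alternative settings, with adjusted p up to 0.433. Counts per gene cannot separate the CD44 splice forms.

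EPCAM (ENSG00000119888.6, GRCh37 chr2:47572297-47614740, + strand), the epithelial adhesion molecule, was also higher in all 4 groups than in Scramble. It stood at 177 and 184 CPM in Scramble, 206 and 210.4 in RNF2 shRNA1, 225 and 214 in RNF2 shRNA2, 204 and 199 in PRT4165, and 197 and 192 in GW-516. Here the libraries labelled RNF2 shRNA2 were highest and GW-516 was nearest to Scramble, an order of groups unlike that of CD44. The rise was 0.29 on the log2 scale in the libraries labelled RNF2 shRNA2 (SE 0.032, edgeR adjusted p = 8.0e-08), 0.21 with RNF2 shRNA1 and 0.16 with PRT4165. With GW-516 it was 0.11 (edgeR adjusted p = 0.0060), a call lost without Scramble replicate 1 (adjusted p = 0.0906) and with the pairs summed (adjusted p = 0.225).

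PROM1 (ENSG00000007062.7, GRCh37 chr4:15964699-16086001, - strand), the gene of CD133, was at the edge of detection in PC3. It had 6 and 8 counts in Scramble, 3 and 6 in RNF2 shRNA1, 9 and 16 in RNF2 shRNA2, 4 and 4 in PRT4165, and 8 and 12 in GW-516. The counts of neighbouring groups overlapped on the CPM scale, and 99.6% of genes tested had a higher RPKM. By edgeR, 0 of the 6 comparisons were called for PROM1, and the smallest unadjusted p was 0.16. The widest 95% interval against Scramble, with PRT4165, ran from -2.51 to 0.71 on the log2 scale, so a change of 2-fold was not detectable at this depth.

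The partners and kin of these surface proteins, 23 tested genes such as hyaluronan synthases, ERM proteins and tetraspan partners, moved in both directions. With GW-516, 14 were called higher and 4 lower, where 26.5% of all genes were called higher and 29.0% lower. With PRT4165 it was 11 and 3 (19.9% and 21.7% of all genes), with RNF2 shRNA1 10 and 5 (26.2% and 28.6%), and in the libraries labelled RNF2 shRNA2 9 and 7 (21.1% and 21.0%), where the number higher was 5 with the pairs summed. CEMIP, a hyaluronan-degrading protein, was at 40.2 CPM in Scramble and rose by 1.44 on the log2 scale with GW-516, by 0.70 with PRT4165 and by 0.60 with RNF2 shRNA1. It fell by 0.45 in the libraries labelled RNF2 shRNA2. HAS2, which makes hyaluronan, was at 7.76 CPM in Scramble. It fell by 1.23 with RNF2 shRNA1 and by 0.76 in the libraries labelled RNF2 shRNA2, while it rose by 0.42 with PRT4165. HAS3, another hyaluronan synthase, was far more abundant, at 187 RPKM over all libraries against 1.63 for HAS2. HAS3 averaged 167 RPKM in Scramble, 189 in RNF2 shRNA1, 215 in RNF2 shRNA2, 202 with PRT4165 and 159 with GW-516. PROM2, the paralogue of PROM1, was at 0.721 CPM in Scramble. It differed by 1.45 with GW-516, by 0.84 with PRT4165 and by -0.81 for RNF2 shRNA2. PROM2 was named for the size of its change. Its group mean reached 1 CPM only with PRT4165 and GW-516, so these values are a description.

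ALDH1A3 (ENSG00000184254.11, GRCh37 chr15:101402129-101456831, + strand), which makes retinoic acid from retinaldehyde, had the largest change of the 7 expressed markers. It stood at 786 CPM in both Scramble libraries, at 1688 and 1665 in RNF2 shRNA1, 855 and 872 in RNF2 shRNA2, 1085 and 1082 in PRT4165, and 767 and 767 in GW-516. RNF2 shRNA1 was well above every other library, PRT4165 came second, and GW-516 lay just below Scramble. The rise with RNF2 shRNA1 was 1.09 on the log2 scale, or 2.13-fold (SE 0.023, edgeR adjusted p = 9.6e-22), and 10.6% of genes tested had a larger change in either direction. PRT4165 gave a rise of 0.46 (SE 0.023, edgeR adjusted p = 3.4e-14). With GW-516 the difference was -0.04 (95% interval -0.084 to 0.011, edgeR adjusted p = 0.19). For RNF2 shRNA2 it was 0.14 (edgeR adjusted p = 3.5e-05, and 0.0948 with the pairs summed).

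ALDH1A1 (ENSG00000165092.8, GRCh37 chr9:75515578-75695358, - strand), the isozyme most often meant by ALDH-positive cells, was barely present. It had 18 and 30 counts in Scramble, 8 and 10 in RNF2 shRNA1, 14 and 22 in RNF2 shRNA2, 22 and 10 in PRT4165, and 17 and 28 in GW-516. RNF2 shRNA1 was lowest and did not overlap Scramble, but the counts are few. The change with RNF2 shRNA1 was -1.36 on the log2 scale (SE 0.55, edgeR adjusted p = 0.039). That call was lost in 7 of 19 alternative settings, with adjusted p up to 0.333 without Scramble replicate 2 and at 0.137 with the pairs summed. None of the 5 other comparisons was called, the smallest edgeR adjusted p being 0.22.

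Of the other 16 aldehyde dehydrogenase genes tested, 8 were called higher and 6 lower with RNF2 shRNA1 (26.2% and 28.6% of all genes), and 4 higher and 7 lower with GW-516 (26.5% and 29.0%). PRT4165 gave 2 and 4 (19.9% and 21.7%), and the libraries labelled RNF2 shRNA2 gave 3 and 7 (21.1% and 21.0%). With the pairs summed, or without Scramble replicate 1 or RNF2 shRNA1 replicate 2, the number higher with RNF2 shRNA1 was 5. ALDH18A1, which makes a proline precursor, was the most abundant of them at 52.3 RPKM, below ALDH1A3. ALDH1A2, the other retinaldehyde dehydrogenase of the class, was at 16.1 RPKM. ALDH3A1, which clears lipid aldehydes, was at 3.60 CPM in Scramble and rose by 1.46 on the log2 scale with PRT4165, 1.25 with GW-516, 1.05 with RNF2 shRNA1 and 0.30 in the libraries labelled RNF2 shRNA2. ALDH2, the mitochondrial enzyme of ethanol metabolism, went from 0.371 CPM in Scramble to 1.13 CPM with RNF2 shRNA1 and 1.12 CPM with GW-516. It was named for the size of its change and reached 1 CPM only in those groups, so these levels are a description. ALDH5A1, which acts in GABA breakdown, fell by 1.00 with RNF2 shRNA1.

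The retinoic acid pathway, of which ALDH1A3 supplies the ligand, was followed through 20 tested genes. With GW-516, 11 were called higher and 2 lower (26.5% and 29.0% of all genes), and with PRT4165 8 and 3 (19.9% and 21.7%). The number higher with GW-516 was 7 with the pairs summed. With RNF2 shRNA1, where ALDH1A3 was highest, 5 were called higher and 7 lower (26.2% and 28.6% of all genes), with a median change of -0.26. For RNF2 shRNA2 it was 3 and 8 (21.1% and 21.0%), with a median of -0.20. The numbers higher were 3 and 0 with the pairs summed and without Scramble replicate 1. STRA6, a vitamin A transporter, went from 0.109 CPM in Scramble to 1.19 CPM with PRT4165 and 2.59 CPM with GW-516. CYP26B1, which degrades retinoic acid, went from 0.181 CPM in Scramble to 0.845 CPM with PRT4165 and 1.50 CPM with GW-516. Both genes were named for the size of their change and reached 1 CPM only in compound-treated libraries, so these levels are a description. RARRES1, a gene called after its response to retinoids, was at 0.401 CPM in Scramble and was higher in all 4 comparisons. The differences were 1.99 with RNF2 shRNA1, 1.04 with GW-516, 0.89 for RNF2 shRNA2 and 0.76 with PRT4165. It too was picked for the size of its change and its group mean reached 1 CPM only in RNF2 shRNA1 (1.59 CPM), so these values are a description.

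NES (ENSG00000132688.10, GRCh37 chr1:156638555-156647189, - strand), the intermediate filament protein of neural and other progenitors, fell in 3 of the 4 groups. It stood at 759 and 749 CPM in Scramble, 459 and 467 in RNF2 shRNA1, 743 and 755 in RNF2 shRNA2, 621 and 632 in PRT4165, and 502 and 504 in GW-516. The libraries labelled RNF2 shRNA2 overlapped Scramble, and the other 3 groups lay below both and apart from each other. NES fell by 0.70 on the log2 scale with RNF2 shRNA1 (SE 0.025, edgeR adjusted p = 2.2e-17), by 0.58 with GW-516 (edgeR adjusted p = 7.4e-16) and by 0.27 with PRT4165 (edgeR adjusted p = 3.3e-09). For RNF2 shRNA2 the difference was -0.01 (95% interval -0.061 to 0.041, edgeR adjusted p = 0.79). The stromal and endothelial marker sum, mostly COL1A2, was also lowest in RNF2 shRNA1 (169 and 173 CPM) and GW-516 (199 and 192 CPM). COL1A2 itself fell by 0.77 with RNF2 shRNA1 and by 0.85 with GW-516, but in the main setting the list did not fall as a whole. Of its 8 tested genes, 6 were called higher and 1 lower with GW-516 (26.5% and 29.0% of all genes). With RNF2 shRNA1 it was 3 and 3 (26.2% and 28.6%). Over the alternatives, the number higher ranged from 3 to 6 with GW-516 and from 1 to 4 with RNF2 shRNA1. The number lower stayed at 1 and 3. The part of these genes in the NES result was not tested.

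Of 7 tested partners and other filament genes, 3 were called higher and 2 lower with RNF2 shRNA1 (26.2% and 28.6% of all genes), and 3 and 3 with GW-516 (26.5% and 29.0%). There were 4 and 2 with PRT4165 (19.9% and 21.7%), and 2 and 2 for RNF2 shRNA2 (21.1% and 21.0%). LMNB1, a nuclear lamin, fell in all 4 comparisons, by 0.87 on the log2 scale with GW-516, 0.49 in the libraries labelled RNF2 shRNA2, 0.47 with RNF2 shRNA1 and 0.36 with PRT4165. LMNB2 fell by 0.58 with GW-516, by 0.38 with RNF2 shRNA1 and by 0.19 with PRT4165. VIM, vimentin, was the most abundant of the list at 249 RPKM, above NES.

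KLF4 (ENSG00000136826.10, GRCh37 chr9:110247133-110252763, - strand), the reprogramming factor of epithelial differentiation, was called higher in 3 of the 4 groups. It stood at 32.4 and 32.7 CPM in Scramble, 49.0 and 48.5 in RNF2 shRNA1, 40.7 and 42.3 in RNF2 shRNA2, 34.2 and 34.0 in PRT4165, and 43.6 and 44.7 in GW-516. All 5 groups were apart from each other, with RNF2 shRNA1 highest and PRT4165 close above Scramble. The rise was 0.58 on the log2 scale with RNF2 shRNA1 (SE 0.045, edgeR adjusted p = 4.2e-11), 0.44 with GW-516 (edgeR adjusted p = 5.5e-09) and 0.35 in the libraries labelled RNF2 shRNA2 (edgeR adjusted p = 4.8e-07). With PRT4165 it was 0.07 (95% interval -0.024 to 0.16, edgeR adjusted p = 0.24).

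KLF5 (ENSG00000102554.9, GRCh37 chr13:73629114-73651676, + strand), a factor of prostate epithelial growth and luminal fate, varied little. It stood at 83.2 and 84.3 CPM in Scramble, 83.6 and 85.3 in RNF2 shRNA1, 72.6 and 76.1 in RNF2 shRNA2, 89.5 and 85.1 in PRT4165, and 90.3 and 93.7 in GW-516. RNF2 shRNA1 overlapped both Scramble and PRT4165, while RNF2 shRNA2 lay below and GW-516 above all others. KLF5 fell by 0.17 on the log2 scale in the libraries labelled RNF2 shRNA2 (SE 0.038, edgeR adjusted p = 7.8e-04). With GW-516 it rose by 0.14 (edgeR adjusted p = 0.0036), and the adjusted p was 0.168 with the pairs summed. With RNF2 shRNA1 the difference was 0.01 (95% interval -0.067 to 0.092, edgeR adjusted p = 0.81).

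Of 12 other Kruppel-like factors tested, 7 were called higher and 1 lower with RNF2 shRNA1 (26.2% and 28.6% of all genes), with a median change of 0.36 on the log2 scale. GW-516 gave 6 and 4 (26.5% and 29.0%). Both PRT4165 (19.9% and 21.7%) and RNF2 shRNA2 (21.1% and 21.0%) gave 4 and 3. KLF10, a TGF-beta response factor and the most abundant of them, was at 22.7 RPKM, close to KLF5. KLF6 rose in all 4 comparisons, by 1.16 with PRT4165, 1.11 with GW-516, 0.89 with RNF2 shRNA1 and 0.59 in the libraries labelled RNF2 shRNA2. KLF7 rose by 1.12 with GW-516, 1.08 with PRT4165 and 0.60 with RNF2 shRNA1, and fell by 0.32 for RNF2 shRNA2.

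**Figure D3:**
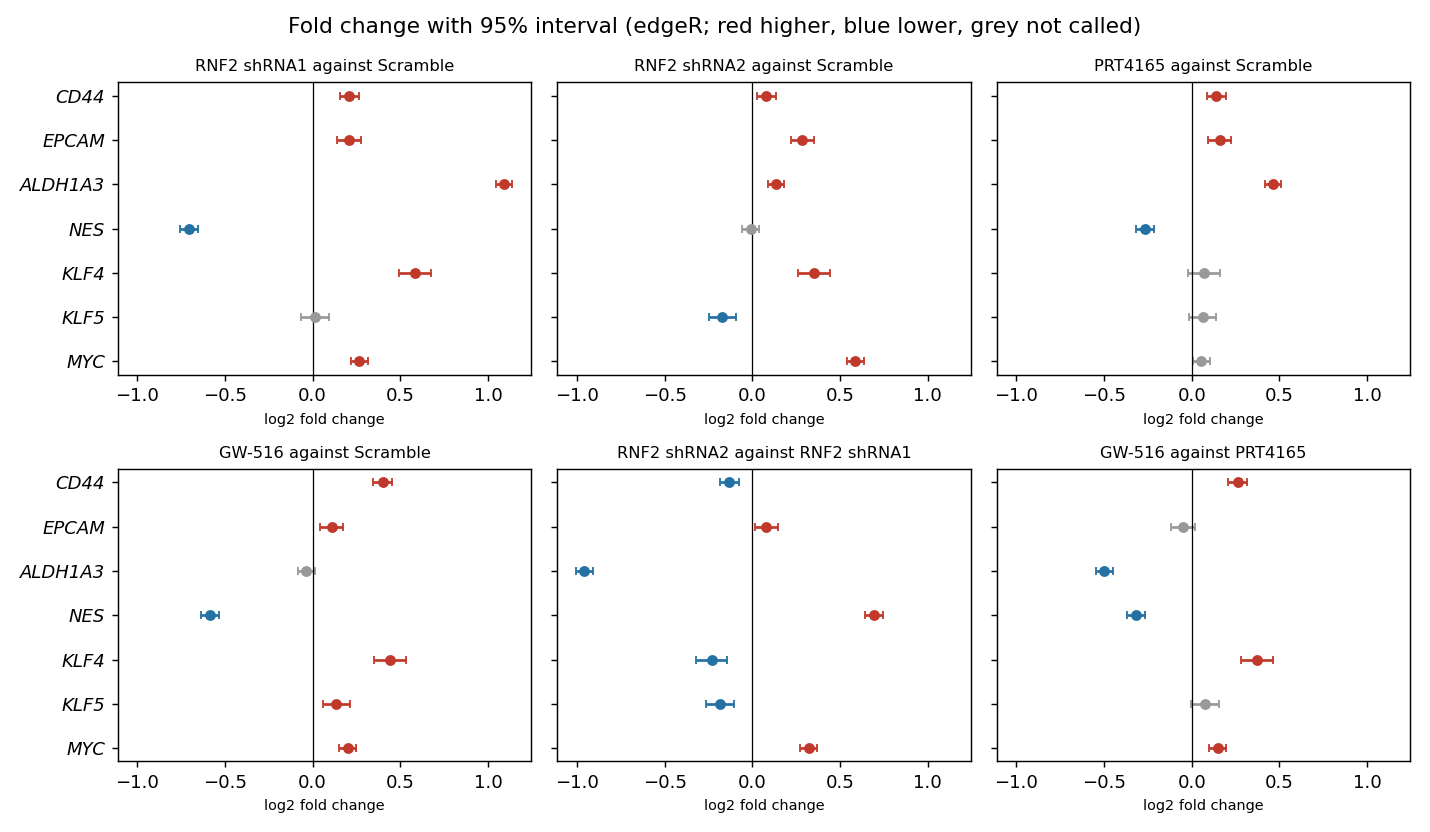
Change of the 7 expressed markers in each of 6 comparisons on the log2 scale, with 95% intervals from edgeR, in red where called higher, in blue where called lower and in grey where not called. ALDH1A3 and NES have the widest contrast between comparisons, and CD44 and EPCAM lie to the right of 0 in all 4 comparisons with Scramble.

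MYC (ENSG00000136997.10), the growth-promoting factor, was the most abundant of the 9 genes and was called higher in 3 of the 4 groups. It stood at 1018 and 1003 CPM in Scramble, 1223 and 1209 in RNF2 shRNA1, 1531 and 1508 in RNF2 shRNA2, 1033 and 1065 in PRT4165, and 1167 and 1157 in GW-516. All groups were apart, and the libraries labelled RNF2 shRNA2 were highest. MYC rose there by 0.59 on the log2 scale (SE 0.024, edgeR adjusted p = 9.5e-16), by 0.27 with RNF2 shRNA1 (edgeR adjusted p = 5.9e-10) and by 0.20 with GW-516 (edgeR adjusted p = 7.9e-08). With PRT4165 the difference was 0.05 (95% interval 0.0046 to 0.10, edgeR adjusted p = 0.074), and it was called in 8 of 20 alternative settings.

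The 39 tested MYC target genes, mostly of ribosome making and growth, did not all follow MYC mRNA. In the libraries labelled RNF2 shRNA2, 26 were called higher and 3 lower, with a median change of 0.20 on the log2 scale, where 21.1% of all genes were called higher and 21.0% lower. With RNF2 shRNA1, 3 were called higher and 34 lower (median -0.36), against 26.2% and 28.6% of all genes. GW-516 gave 1 and 31 (median -0.32), against 26.5% and 29.0%, and PRT4165 gave 1 and 27 (median -0.18), against 19.9% and 21.7%. Over the alternatives, the number lower ranged from 27 to 35 with RNF2 shRNA1, from 28 to 32 with GW-516 and from 16 to 29 with PRT4165, the 16 with the pairs summed. The number higher in the libraries labelled RNF2 shRNA2 ranged from 20 to 27. ODC1, the first enzyme of polyamine synthesis, went from 675 CPM in Scramble to 1183 CPM in the libraries labelled RNF2 shRNA2 (0.81 on the log2 scale) and to 538 CPM with RNF2 shRNA1 (-0.33). It rose with both compounds, by 0.28 with GW-516 and 0.27 with PRT4165. TERT, the telomerase subunit, fell by 1.58 with RNF2 shRNA1, by 0.81 with GW-516 and by 0.59 with PRT4165, from 2.24 CPM. NME1, whose reads can be shared with its neighbour NME2, fell by 0.79 with RNF2 shRNA1. NPM1, HSPD1 and HSPE1 of this list are known to have processed pseudogenes, which can share their reads.

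Of 19 tested MYC paralogues and network partners, 8 were called higher and 6 lower with RNF2 shRNA1 (26.2% and 28.6% of all genes), and 8 and 3 for RNF2 shRNA2 (21.1% and 21.0%). There were 7 and 4 with PRT4165 (19.9% and 21.7%), and 5 and 7 with GW-516 (26.5% and 29.0%). With the pairs summed, 5 were higher with RNF2 shRNA1 and 4 with PRT4165, and 4 were lower with GW-516. The 5 with RNF2 shRNA1 also came without Scramble replicate 2 or without RNF2 shRNA1 replicate 2. MXD1, which competes with MYC for MAX, rose by 1.27 on the log2 scale with GW-516, 1.19 with RNF2 shRNA1, 0.55 with PRT4165 and 0.43 in the libraries labelled RNF2 shRNA2. FBXW7, which marks MYC for degradation, rose by 0.72 with RNF2 shRNA1 and 0.30 for RNF2 shRNA2, and fell by 0.13 with GW-516. MYCL was at 1.50 CPM in Scramble and rose by 1.08 with GW-516 and 0.67 with PRT4165, while it fell by 0.67 with RNF2 shRNA1. MYCN had at most 2 counts in any library.

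**Figure D4:**
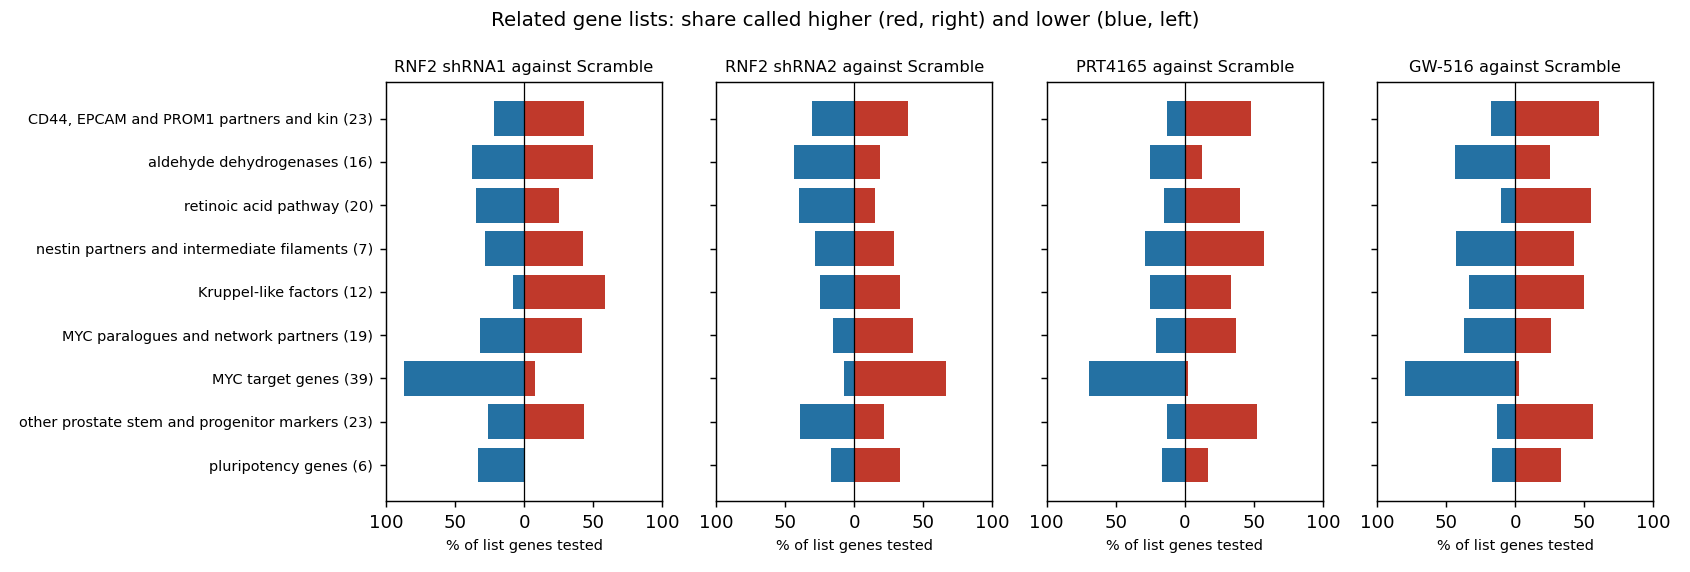
Share of the tested genes of each related list called higher (red, to the right) and lower (blue, to the left) in each comparison with Scramble, with the number tested after each name. The MYC target genes lie mostly to the left with RNF2 shRNA1, PRT4165 and GW-516 and mostly to the right in the libraries labelled RNF2 shRNA2.

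The 2 hairpin groups were also compared with each other, RNF2 shRNA2 against RNF2 shRNA1, where 7 of the 9 members were called (3 higher, 4 lower), against 59.2% of all genes (29.9% higher, 29.2% lower). Among the members, 0 were called with a change of at least 2-fold, against 11.2% of genes. ALDH1A3 was lower by 0.96 on the log2 scale in RNF2 shRNA2 (SE 0.023, edgeR adjusted p = 1.0e-20) and NES was higher by 0.69 (SE 0.025, edgeR adjusted p = 1.8e-17). MYC was higher by 0.32, while KLF4 was lower by 0.23, KLF5 by 0.18 and CD44 by 0.13. EPCAM was higher by 0.08 (edgeR adjusted p = 0.036), a call lost in 15 of 19 alternative settings (adjusted p = 0.470 with the pairs summed).

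GW-516 against PRT4165, both for 48 hours, gave 5 members called (3 higher, 2 lower), where 41.1% of all genes were called (18.1% higher, 23.0% lower). Again, 0 members were called with a change of at least 2-fold, against 4.38% of genes. With GW-516, ALDH1A3 was lower by 0.50 on the log2 scale (SE 0.023, edgeR adjusted p = 1.8e-14) and NES lower by 0.32 (edgeR adjusted p = 2.5e-10). KLF4 was higher by 0.37, CD44 by 0.26 and MYC by 0.15. The 2 compounds were not told apart for EPCAM, with a difference of -0.05 (95% interval -0.12 to 0.015), or for KLF5, at 0.08 (95% interval -0.0026 to 0.15). The doses are not in the labels, so these are differences between treatments as applied.

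The genes whose levels followed each marker most closely over the 10 libraries were found among about 1237 genes that varied at least 2-fold between group means. The libraries are 5 pairs, so the values below describe 5 levels rather than 10 independent points. For CD44 they were MIR23AHG (Pearson r = 0.991), KDM7A-DT (0.990) and H2BC5 (0.985), and for ALDH1A3 they were PLA2G6 (0.979), TNXB (0.977) and PAN2 (0.977). NES was followed by POLA1 (0.989), which encodes a subunit of DNA polymerase alpha, RBM3 (0.980) and FAM111B (0.979). KLF4 was followed by the stress-response genes HERPUD1 (0.964), ATF3 (0.955) and PPP1R15A (0.948). KLF5 was followed by KIF3C (0.978), CD63-AS1 (0.969) and NRBP2 (0.968). The closest genes were less close for EPCAM, with DLC1 at 0.940, and for MYC, with UBE2QL1 at 0.933. ATF3, a stress-induced factor, averaged 16.0 CPM for Scramble, 51.5 with RNF2 shRNA1 and 50.9 with GW-516. KLF4 was highest in the same groups, which the choice of ATF3 by its correlation with KLF4 already implies.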

How the data were processed

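The deposited files hold whole-number counts of reads per gene, made by the authors with featureCounts 1.4.3-p1 on GENCODE 18, stranded (-s 2), per the file headers. The submitters' processing notes name GRCh37 (hg19), STAR and DESeq2 1.8.1. No paired-end option stands in the command they give, so each read end was counted, and 62.7% to 69.6% of counts from 1 to 10 were even. The file headers carry other short names (MDV3 for the line, 20155 for RNF2 shRNA2, Th4 for GW-516), whose meaning the labels do not give, and groups follow the labels. Only the header of RNF2 shRNA2 replicate 2 also carries the tag L005only. That library had the most counts (108380198) and the lowest share of even counts (62.7%). Symbols were found for 51488 of 57445 gene IDs.

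The counts were normalized by TMM and tested with edgeR 4.0.16 (R 4.3.3), a quasi-likelihood F test over all 10 libraries with 1 coefficient per group. Genes passed filterByExpr at a minimum count of 10, p-values are two-sided and Benjamini-Hochberg adjusted over 18478 genes, and calls are at 0.05. RPKM used the exon length in the files. Total counts of 65877850 to 108380198 set the precision. The script was tested on simulated data. Alternatives used DESeq2 1.42.0, limma 3.58.1 (voom), other normalization, filters, thresholds and samples.

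The 9 members, the 12 related gene lists and the tests were chosen with earlier results of these data known. Named beside the members are, from each list, up to 3 genes with the largest change among those called with at least 1 CPM, the most abundant paralogues, and the 3 genes most correlated with each expressed member among genes with at least 5 CPM and a 2-fold span of group means.

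Same-numbered replicates did not deviate together: the correlation of their deviations ran from -0.139 to 0.0236 over 13104 genes, so numbers pair nothing.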

Additional observations from a re-analysis of the deposited data

How the results depend on the processing

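Of 54 changes (9 members, 6 comparisons), 35 were called, and 28 of these kept their call under every one of the 20 alternatives that gave a value. None of the 35 called changes reversed, while 5 changes that were not called, all near 0 or in ALDH1A1 or PROM1, differed in sign in some setting. The calls lost in some setting were CD44, EPCAM and ALDH1A3 in the smaller changes given above, ALDH1A1 with RNF2 shRNA1 and KLF5 with GW-516. Of 19 changes not called, 4 were called in some setting: MYC with PRT4165, KLF5 with PRT4165, KLF5 between the compounds, and ALDH1A3 with GW-516. Asking for at least a 2-fold change left 2 members with RNF2 shRNA1 and 0 in each of the 5 other comparisons. Leaving out 1 library at a time gave 6 to 7 members with RNF2 shRNA1, 5 to 6 with RNF2 shRNA2, 4 to 5 with PRT4165, 5 to 6 with GW-516, 6 to 7 between the hairpins and 5 to 6 between the compounds; a lone library was then assumed to vary like the other groups. A fit with the replicate number as a block gave the same counts of 7, 6, 4, 6, 7 and 5 members. Leaving out the libraries labelled RNF2 shRNA2 was chosen after seeing the data, and it brought MYC with PRT4165 to an adjusted p of 0.0065. Depth limits PROM1 and ALDH1A1, with at most 16 and 30 counts.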

Other observations

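Other genes used to mark prostate stem and progenitor cells, 23 of them tested, were called higher in 13 cases and lower in 3 with GW-516 (26.5% and 29.0% of all genes), and 12 and 3 with PRT4165 (19.9% and 21.7%). There were 10 and 6 with RNF2 shRNA1 (26.2% and 28.6%), and 5 and 9 in the libraries labelled RNF2 shRNA2 (21.1% and 21.0%). BMI1, which belongs to this list, is given above. ITGA2, a collagen receptor subunit, was at 95.2 CPM in Scramble and rose by 2.03 on the log2 scale with GW-516, 1.51 with PRT4165, 0.60 in the libraries labelled RNF2 shRNA2 and 0.23 with RNF2 shRNA1. ITGB4, the laminin receptor subunit of hemidesmosomes, was at 57.3 CPM and rose by 2.13 with PRT4165, 1.94 with GW-516, 0.55 with RNF2 shRNA1 and 0.41 in the libraries labelled RNF2 shRNA2.

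Pluripotency genes were mostly silent, with 6 of 15 tested. POU5F1 had at most 4 counts in any library and NANOG at most 2, while SOX2 was at 1.65 CPM in Scramble. SOX2 fell by 1.56 on the log2 scale with RNF2 shRNA1 (edgeR adjusted p = 2.4e-06), and the other 3 comparisons with Scramble were not called. Of the 6 tested, 0 were called higher and 2 lower with RNF2 shRNA1 (26.2% and 28.6% of all genes), and 2 and 1 in the libraries labelled RNF2 shRNA2 (21.1% and 21.0%). There were 1 and 1 with PRT4165 (19.9% and 21.7%), and 2 and 1 with GW-516 (26.5% and 29.0%).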
